A study of Mus musculus with 43 samples.

Results

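A set of secreted genes of mouse intestinal organoids is described here, 10 of 23951 genes in the bulk expression tables and 10 of 54307 gene rows in the single-cell matrices. They are Efemp1, Thbs1, Fstl1, Ltbp1, Ltbp2, Ltbp3, Ltbp4, Col4a1, Col4a2 and Edn1, taken by symbol because earlier results of these data showed matrix genes of the epithelium moving with TGFB1. The TGFB1 contrast of the bulk libraries therefore chose the genes, and its values for them are given as a description, without a test. All organoids were primary cultures of wild-type C57BL/6 intestine. Bulk RNA-seq covered 3 libraries per group in 6 groups, vehicle or 2 ng/mL TGFB1 given on day 6 for 24 h. The conditions were non-irradiated organoids harvested on day 7, and organoids irradiated with 4 Gy on day 4 that were harvested on day 7 or on day 11. Single-cell RNA-seq (PIPseq) covered organoids given 4 Gy on day 4 and collected on day 8, 1 library each after vehicle (0 h) or 6, 15 or 24 h of 1 ng/mL TGFB1. It also covered sorted Ki67-RFP+ crypt cells of Mki67tm1.1Cle/J mice, a reporter strain that marks dividing cells, from the proximal small intestine. Of these crypt libraries, 1 came from a non-irradiated littermate and 2 were taken 56 h after 12 Gy to the whole body. The labels do not say whether replicate libraries came from separate cultures, so the spread between them may be technical.

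TGFB1 is secreted in a latent form, folded inside its own propeptide, and most cells export it bound to a latent TGFB binding protein that anchors the complex to fibrillin microfibrils and fibronectin in the matrix. Ltbp1, Ltbp3 and Ltbp4 bind the latent complex, whereas Ltbp2 is a structural relative that does not. Thbs1 (thrombospondin-1) can free the active ligand from the complex, and Itgav-containing integrins do so by pulling on it. Efemp1 encodes fibulin-3, a matrix glycoprotein of the elastic fibre family, and Fstl1 a secreted follistatin-like glycoprotein. Col4a1 and Col4a2 are the chains of the most widespread type IV collagen, the network of the basement membrane under the intestinal epithelium, and Edn1 encodes the precursor of endothelin-1, a vasoactive peptide. In the intestine much of this matrix is usually credited to fibroblasts and vessels, which organoids lack.

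RefSeq start windows of 300 bases (250 before to 50 after the start site, build GRCm38.p6) were held for 9 of the 10 genes, 12 windows in all, and Thbs1 had none. The windows of Col4a1 and Col4a2 are shown because these genes start 21 bases apart on opposite strands, each with its first bases inside the other, and capitals mark the 78 bases that the windows share. Col4a1 lies at chr8:11312777-11313076 on the minus strand and Col4a2 at chr8:11312555-11312854 on the plus strand.
Col4a1: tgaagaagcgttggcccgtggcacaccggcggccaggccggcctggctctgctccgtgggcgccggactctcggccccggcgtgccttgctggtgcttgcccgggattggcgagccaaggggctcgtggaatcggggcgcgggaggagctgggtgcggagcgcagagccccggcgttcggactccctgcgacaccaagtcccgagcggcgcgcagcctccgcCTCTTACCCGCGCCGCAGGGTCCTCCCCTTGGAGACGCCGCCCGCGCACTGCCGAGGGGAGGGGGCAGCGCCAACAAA
Col4a2: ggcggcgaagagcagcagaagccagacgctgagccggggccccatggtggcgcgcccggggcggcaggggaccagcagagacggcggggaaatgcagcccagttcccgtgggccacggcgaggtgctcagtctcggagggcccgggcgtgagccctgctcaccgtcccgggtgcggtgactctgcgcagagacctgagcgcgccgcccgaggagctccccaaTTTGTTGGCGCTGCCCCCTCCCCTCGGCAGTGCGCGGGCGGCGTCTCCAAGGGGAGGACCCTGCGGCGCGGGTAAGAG
Efemp1 (chr11:28852955-28853254, plus strand) is shown because its level differed most between conditions, with the letters of an AP-1 site (TGANTCA) in capitals at position -154, counted with the start site as 0.
Efemp1: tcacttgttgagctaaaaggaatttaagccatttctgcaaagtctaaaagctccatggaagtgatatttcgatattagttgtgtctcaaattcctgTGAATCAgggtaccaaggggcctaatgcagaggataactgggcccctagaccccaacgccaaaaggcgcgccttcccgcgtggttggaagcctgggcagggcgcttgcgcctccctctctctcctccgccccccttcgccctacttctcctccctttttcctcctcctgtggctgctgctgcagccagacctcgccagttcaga
Edn1 (chr13:42301226-42301525, plus strand) is shown as the most abundant of the 10 genes in single cells, with the letters of a TEAD site (GGAATG, here on the opposite strand) in capitals at position -207.
Edn1: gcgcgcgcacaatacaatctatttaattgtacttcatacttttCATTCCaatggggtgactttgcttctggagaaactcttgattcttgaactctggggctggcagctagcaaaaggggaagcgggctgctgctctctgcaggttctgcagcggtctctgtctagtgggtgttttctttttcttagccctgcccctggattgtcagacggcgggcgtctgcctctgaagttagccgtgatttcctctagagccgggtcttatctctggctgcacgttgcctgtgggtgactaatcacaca
The search covered both strands. TGANTCA was in 2 of the 12 windows (Efemp1 and Ltbp3), against 7.81% of 32817 RefSeq windows of the same length, and GGAATG was in 1 window, against 14.7%. The SMAD core CAGACA was in 2 windows, of Ltbp1 and Ltbp3, against 21.0%. The SMAD palindrome GTCTAGAC was in none, against 0.213%, and TATAAA was in none, against 13.6%. CCAAT was in 5 windows against 37.4%, and the GC box GGGCGG was in 8 against 35.6%. The windows are not all separate sequences. A pair of Ltbp4 windows (chr7:27333599-27333898 and chr7:27333614-27333913) overlaps, as does that of Col4a1 and Col4a2, so some GC boxes are counted in both windows of a pair. The matches of CCAAT and GGAATG overlap in the Edn1 window, and CAGACA and TGANTCA overlap in that of Ltbp3. These are matches of letters, and no binding was measured at them here.

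Bulk values are FPKM, fragments per kilobase of transcript, scaled to the library's fragments, so levels can be set beside each other between genes. Total FPKM per library ranged from 447728 to 621996, and between 11040 and 11361 genes exceeded 1 FPKM. Read depth is unknown. In bulk RNA, fewer cells of a type and less RNA per cell cannot be told apart. The 7 epithelial markers (Epcam, Cdh1, Krt8, Krt18, Vil1, Cdx2, Cldn7) were each at a mean of at least 1 FPKM in all 6 groups. Their summed level was 3794 to 4565 FPKM with vehicle, 9043 to 10060 FPKM with TGFB1 on day 7 and 4174 to 4787 FPKM with TGFB1 on day 11. On day 7 the means of all but Cdx2 were higher with TGFB1. Cdx2 was lower in each condition (144 and 90.5, 119 and 92.4, 138 and 106 FPKM). On day 11 Epcam, Vil1 and Cldn7 were also lower, and Krt8 was higher. The means of Cdh1 and Krt18 were higher there too, but the groups overlapped. Cdh1 was at 334 to 372 FPKM with vehicle and 357 to 384 FPKM with TGFB1, and Krt18 at 1072 to 1317 and 1258 to 1434 FPKM. Markers of the cells that usually make this matrix were low: the 12 mesenchymal markers summed to 2.84 to 10.1 FPKM and the 7 endothelial markers to 1.55 to 15.9 FPKM. Vim and Acta2 made up most of the former and Egfl7, which epithelium can also express, most of the latter. The endothelial markers Cdh5 and Kdr reached at most 0.0513 FPKM in any library. The immune markers in the tables, 7 of 8, summed to 4.83 to 23.5 FPKM, and the sum was higher with TGFB1 than with vehicle in each condition. In non-irradiated organoids this was mostly Cd68 (means of 8.57 and 21.8 FPKM), and Lyz2 was lower with TGFB1 (0.426 and 0.235 FPKM). In irradiated organoids it was mostly Lyz2, Cd68 and Csf1r. Ptprc reached at most 0.0726 FPKM. Their part in the values below was not tested.

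In total, all 3 TGFB1 libraries lay above all 3 vehicle libraries for 6 of the 10 genes in non-irradiated organoids, where 27.9% of all expressed genes did so. The count was 8 of 10 in irradiated day 7 organoids (30.7% of all genes) and 9 of 10 on day 11 (28.6%). All 3 TGFB1 libraries lay below all 3 vehicle libraries for 2, 1 and 0 of the genes, against 28.2%, 29.8% and 28.5% of all genes. Since the genes were chosen on this contrast, nothing is read from these shares. The median difference over the 10 genes was 0.62, 0.99 and 1.19 on the log2(FPKM + 1) scale, beside medians over all expressed genes between -0.0048 and 0.0041. Genes averaging 1 FPKM or more over the 6 libraries of a condition numbered 4, 6 and 8 of the 10.

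**Figure D1:**
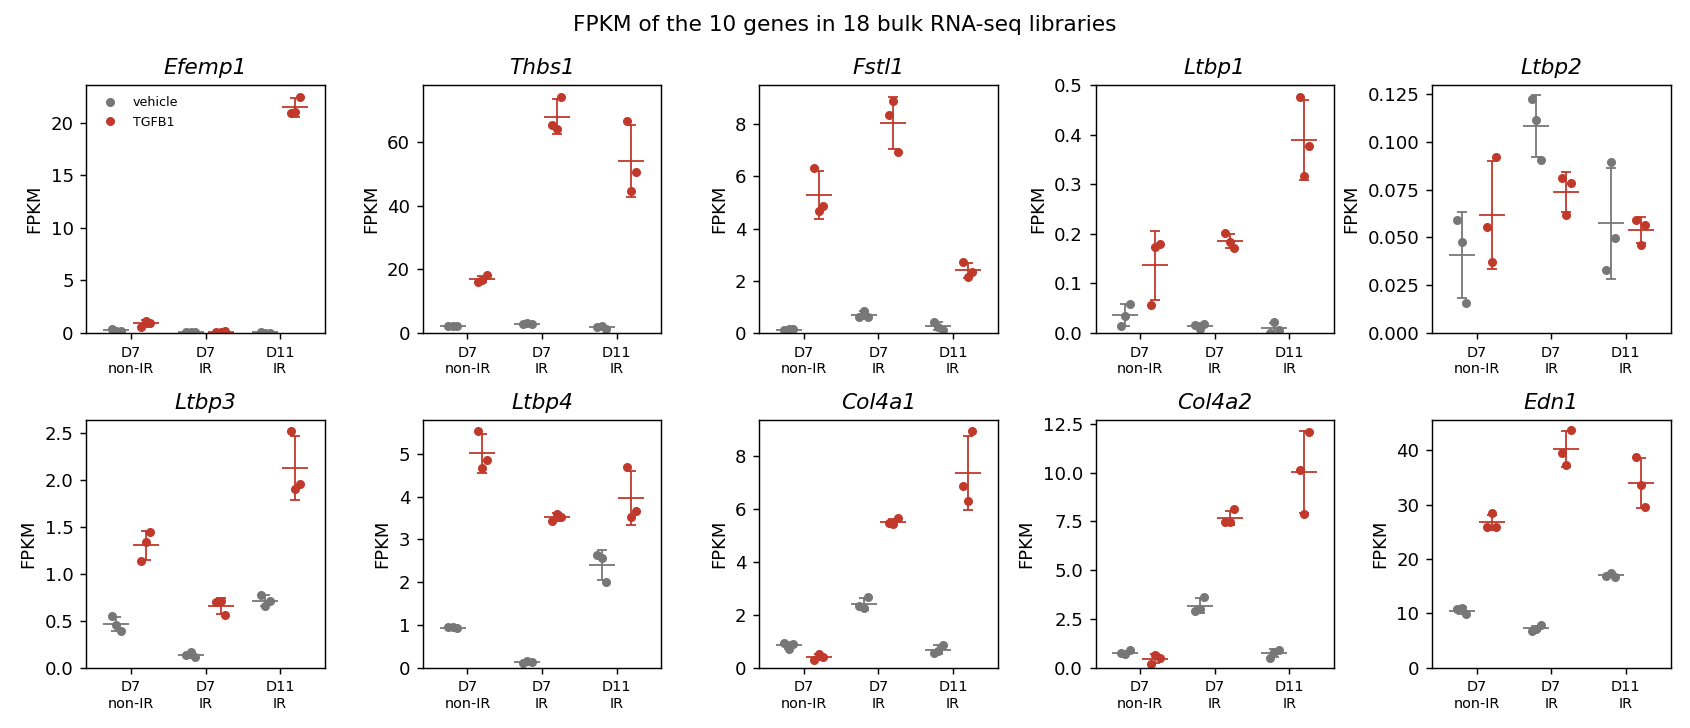
FPKM (linear axis from 0, a scale of its own per gene) of each gene in the 18 bulk libraries, vehicle in grey and TGFB1 in red, 3 libraries per group with the mean and SD as a bar. Thbs1 and Edn1 were higher with TGFB1 in all 3 conditions, Efemp1 reached 20.9 to 22.4 FPKM only in the day 11 TGFB1 libraries, and Col4a1 and Col4a2 were below vehicle in non-irradiated organoids and above it in irradiated ones.

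Among the binding proteins for latent TGFB, Ltbp4 had the highest mean in every group but irradiated day 7 vehicle organoids, where it and Ltbp3 did not differ beyond their spread. In non-irradiated organoids Ltbp4 was at 0.945, 0.944 and 0.933 FPKM with vehicle and at 5.53, 4.66 and 4.85 FPKM with TGFB1. In irradiated day 7 organoids it was at 0.100, 0.164 and 0.129 FPKM with vehicle and at 3.43, 3.60 and 3.53 FPKM with TGFB1. On day 11 it was at 2.64, 2.56 and 2.00 FPKM with vehicle and at 4.68, 3.53 and 3.66 FPKM with TGFB1. The groups did not overlap in any of the 3 conditions, and the TGFB1 libraries stood at 3.43 to 5.53 FPKM throughout, while the vehicle libraries ranged from 0.100 to 2.64 FPKM. The ratio of the means was 5.33, 26.9 and 1.65. The difference on the log2(FPKM + 1) scale was 1.63 (SE 0.0763), 2.00 (SE 0.0824) and 0.54 (SE 0.125), and the day 11 difference was 1.46 lower than that on irradiated day 7 (-1.46, SE 0.138). The tables of the 3 conditions were normalised separately, so vehicle levels are set beside each other here with no test.

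Ltbp3, which many cells secrete with latent TGFB1, was at 0.553, 0.452 and 0.397 FPKM with vehicle and 1.14, 1.34 and 1.44 FPKM with TGFB1 in non-irradiated organoids. The values were 0.132, 0.170 and 0.110 against 0.706, 0.709 and 0.558 FPKM in irradiated day 7 organoids. On day 11 they were 0.774, 0.658 and 0.714 against 2.52, 1.91 and 1.96 FPKM. The TGFB1 libraries were above the vehicle libraries in each condition, by a ratio of means of 2.80, 4.79 and 2.98. In RefSeq all 4 Ltbp genes and Fstl1 overlap another annotated gene, and Col4a1 and Col4a2 overlap each other. With no strand setting known, reads of such overlaps cannot be assigned.

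Ltbp1, the founding member of the family, stayed under 1 FPKM in every library. It ranged from 0.0133 to 0.0578 FPKM with vehicle and from 0.0563 to 0.180 FPKM with TGFB1 in non-irradiated organoids, where the groups overlapped. With irradiation, Ltbp1 was at 0.00906 to 0.0183 FPKM against 0.172 to 0.201 FPKM on day 7. On day 11 it was at 0 to 0.0220 FPKM against 0.316 to 0.476 FPKM. The groups did not overlap in irradiated organoids of either day, but a level this low can rest on few reads. Ltbp2, the relative that does not carry latent TGFB, ranged from 0.0157 to 0.122 FPKM over all 18 libraries. Its groups overlapped in non-irradiated organoids and on day 11, and in irradiated day 7 organoids all TGFB1 libraries (0.0619 to 0.0813 FPKM) were below all vehicle libraries (0.0905 to 0.122 FPKM).

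Thbs1, the activator of latent TGFB, was at 2.34, 2.12 and 2.12 FPKM with vehicle and 16.1, 16.8 and 18.2 FPKM with TGFB1 in non-irradiated organoids. In irradiated day 7 organoids Thbs1 was at 2.79, 3.03 and 2.73 FPKM with vehicle and 65.4, 64.3 and 74.4 FPKM with TGFB1. On day 11 it was at 2.00, 2.19 and 1.35 FPKM with vehicle and 66.8, 44.8 and 50.8 FPKM with TGFB1. The groups were far apart in all 3 conditions, and vehicle levels stayed between 1.35 and 3.03 FPKM. The means differed by a ratio of 7.78, 23.9 and 29.3, or 2.50 (SE 0.0609), 4.16 (SE 0.0634) and 4.27 (SE 0.16) on the log2(FPKM + 1) scale. The difference was 1.66 (SE 0.0896) larger in irradiated than in non-irradiated organoids on day 7, and those of irradiated day 7 and day 11 lay 0.11 apart with an SE of 0.201. The spread between the day 11 TGFB1 libraries (SD 11.4 FPKM around a mean of 54.1) was the widest of the Thbs1 groups.

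Fstl1 was close to absent with vehicle, at 0.112, 0.142 and 0.139 FPKM in non-irradiated organoids, and was at 6.33, 4.66 and 4.87 FPKM with TGFB1. Irradiated day 7 organoids had 0.617, 0.862 and 0.595 FPKM with vehicle and 8.36, 8.88 and 6.95 FPKM with TGFB1. Day 11 organoids had 0.432, 0.220 and 0.126 FPKM with vehicle and 2.72, 2.15 and 2.35 FPKM with TGFB1. No group overlapped its counterpart, and the day 11 TGFB1 libraries held less Fstl1 than the day 7 ones. The differences were 2.47 (SE 0.103), 2.42 (SE 0.1) and 1.44 (SE 0.127) on the log2(FPKM + 1) scale, and the ratios of the means were 40.3, 11.7 and 9.27. The log2(FPKM + 1) scale understates the change of low genes: with a pseudocount of 0.1 the differences of Fstl1 were 4.53, 3.38 and 2.88.

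Efemp1 had the most uneven pattern of the 10 genes. In non-irradiated organoids fibulin-3 mRNA was at 0.397, 0.232 and 0.179 FPKM with vehicle and 0.569, 1.18 and 0.979 FPKM with TGFB1. In irradiated organoids of day 7 Efemp1 was at 0.0846, 0.126 and 0.107 FPKM with vehicle and 0.0919, 0.0893 and 0.183 FPKM with TGFB1, and these groups overlapped. In irradiated organoids of day 11 Efemp1 was at 0.103, 0.0425 and 0.0432 FPKM with vehicle and 20.9, 21.0 and 22.4 FPKM with TGFB1. The 3 day 11 TGFB1 libraries were thus the only ones of the 18 above 1.18 FPKM, and they stood close together (SD 0.875 FPKM). The log2(FPKM + 1) differences were 0.58 (SE 0.127), 0.02 (SE 0.04) and 4.40 (SE 0.0917). Between irradiated day 7 and day 11 the difference itself moved by 4.38 (SE 0.0891), beyond the spread of the libraries.

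The type IV collagen genes changed side with irradiation. In non-irradiated organoids Col4a1 was at 0.952, 0.695 and 0.882 FPKM with vehicle and 0.305, 0.529 and 0.406 FPKM with TGFB1. In irradiated day 7 organoids Col4a1 was at 2.33, 2.25 and 2.67 FPKM with vehicle and 5.47, 5.41 and 5.64 FPKM with TGFB1. On day 11 it was at 0.557, 0.630 and 0.860 FPKM with vehicle and 6.86, 6.27 and 8.92 FPKM with TGFB1. All 3 TGFB1 libraries were thus below vehicle without irradiation, at levels under 1 FPKM in all 6 libraries, and above it in both irradiated conditions. Its partner Col4a2 was at 0.776, 0.687 and 0.887 FPKM with vehicle and 0.217, 0.668 and 0.496 FPKM with TGFB1 in non-irradiated organoids. It was at 2.92, 3.00 and 3.61 against 7.45, 7.49 and 8.12 FPKM in irradiated day 7 organoids and at 0.509, 0.794 and 0.920 against 10.1, 7.90 and 12.1 FPKM on day 11. Col4a2 followed the same order as Col4a1, although in non-irradiated organoids its highest TGFB1 library (0.668 FPKM) and lowest vehicle library (0.687 FPKM) nearly touched.

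On the log2(FPKM + 1) scale the differences for Col4a1 were -0.38 (SE 0.0813), 0.93 (SE 0.0718) and 2.30 (SE 0.135), and those for Col4a2 were -0.30 (SE 0.116), 1.06 (SE 0.077) and 2.65 (SE 0.152). The means with TGFB1 over those with vehicle stood at 0.49, 2.28 and 10.8 for Col4a1 and at 0.588, 2.42 and 13.5 for Col4a2. Over the 18 libraries the log2 levels of the pair had a Pearson r of 0.997, and they share the start region printed above. Markers of endothelial cells, which make much type IV collagen, summed to 14.2 to 15.9 FPKM with vehicle and 3.61 to 5.05 FPKM with TGFB1 on day 11, a difference that was that of Egfl7 (means of 15.0 and 3.73 FPKM). Of the other endothelial markers Tek was higher with TGFB1 on day 11 (0.0485 and 0.368 FPKM), while Cdh5, Kdr, Emcn, Pecam1 and Plvap stayed at or under 0.137 FPKM in every day 11 library. The mesenchymal sum was 5.37 to 7.06 FPKM with vehicle and 2.84 to 4.17 FPKM with TGFB1 on day 11, where Vim was lower (5.91 and 1.73 FPKM) and Acta2 (0.159 and 1.53 FPKM) and Col1a1 (0.00253 and 0.0390 FPKM) were higher. In irradiated day 7 organoids that sum was 4.46 to 5.55 against 7.23 to 10.1 FPKM, with Acta2 at means of 0.419 and 3.22 FPKM. The part of such cells in the collagen values was not tested.

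Edn1 was the most abundant gene of the set in vehicle organoids. In non-irradiated organoids it was at 10.8, 10.9 and 9.80 FPKM with vehicle and 25.9, 28.4 and 26.0 FPKM with TGFB1. Irradiated day 7 organoids held 6.85, 7.11 and 7.78 FPKM of Edn1 with vehicle and 39.5, 37.3 and 43.8 FPKM with TGFB1. Day 11 organoids held 16.9, 17.5 and 16.7 FPKM with vehicle and 38.7, 33.6 and 29.5 FPKM with TGFB1. No group overlapped its counterpart, and the vehicle level was lowest where the ratio of the means was highest (2.54, 5.54 and 1.99 in the order given). The log2(FPKM + 1) differences were 1.27 (SE 0.0544), 2.32 (SE 0.0661) and 0.95 (SE 0.0956).

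**Figure D2:**
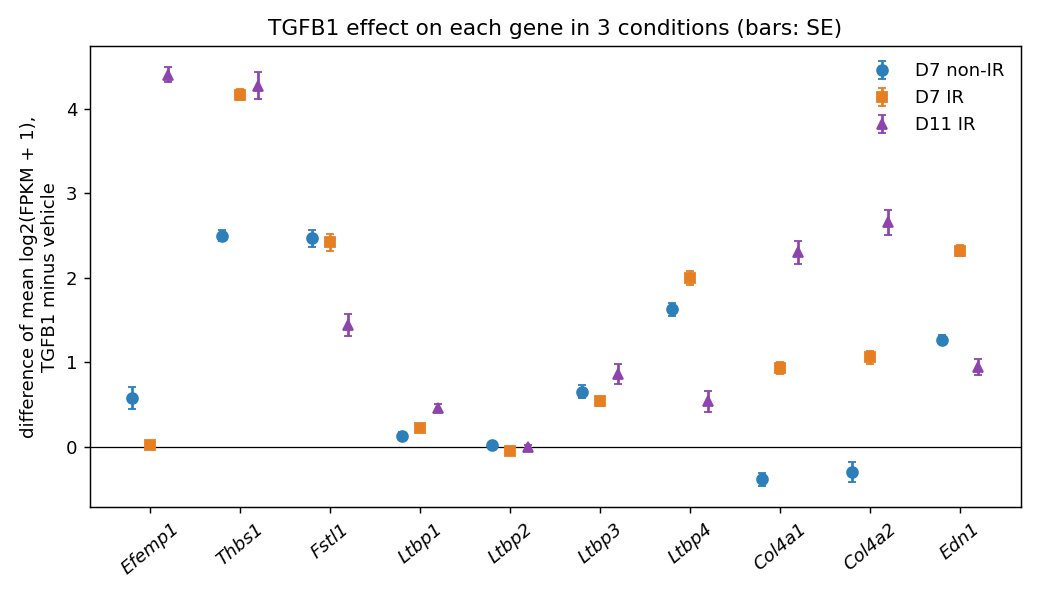
Difference of mean log2(FPKM + 1), TGFB1 minus vehicle (vertical axis), for each gene in non-irradiated day 7 (circles), irradiated day 7 (squares) and irradiated day 11 organoids (triangles), with the SE as a bar and 3 libraries per group. Efemp1 stands apart on day 11 at 4.40, Ltbp4 and Edn1 peak in irradiated day 7 organoids at 2.00 and 2.32, and Col4a1 and Col4a2 lie below 0 only without irradiation.

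By mean FPKM the order of the genes with TGFB1 in non-irradiated organoids was Edn1 (26.7), Thbs1 (17.0), Fstl1 (5.29), Ltbp4 (5.01), Ltbp3 (1.31) and Efemp1 (0.910), with the remaining 4 under 0.5 FPKM. Fstl1 and Ltbp4 did not differ beyond their SDs of 0.910 and 0.454. In irradiated day 7 organoids with TGFB1 it was Thbs1 (68.0), Edn1 (40.2), Fstl1 (8.06), Col4a2 (7.69), Col4a1 (5.50) and Ltbp4 (3.52), and Fstl1 and Col4a2 were within their spread. On day 11 with TGFB1 it was Thbs1 (54.1), Edn1 (33.9), Efemp1 (21.4), Col4a2 (10.0), Col4a1 (7.35), Ltbp4 (3.96), Fstl1 (2.41) and Ltbp3 (2.13). The ranges of Col4a2 (7.90 to 12.1) and Col4a1 (6.27 to 8.92) overlapped there, and Fstl1 and Ltbp3 differed by less than their SDs of 0.291 and 0.341.

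Over the 18 libraries, 11466 other genes averaging 1 FPKM or more were ranked by Pearson r of log2(FPKM + 1) with each of the 7 genes at that level. The libraries share their treatment groups, so a high r describes the pattern over 6 groups. Efemp1 was most like Isx (r = 0.986), Eya2 (0.981) and Ripply3 (0.977). Thbs1 was most like Map6 (0.996), Pea15a (0.993) and Dok2 (0.992), and Fstl1 like Cnp (0.987), Il34 (0.986) and Ric8 (0.981). Edn1 was most like Rnf122 (0.987), Foxq1 (0.980) and Cd97 (0.978), and Ltbp4 like Lbh (0.986), Csnk1e (0.977) and Sh3bp4 (0.967). Both type IV collagen genes had Smcr8 (0.990 for Col4a1 and 0.989 for Col4a2) and Clcn7 (0.964 and 0.966) as their nearest genes apart from each other. Degs1 (0.963) came next for Col4a1 and Nox1 (0.964) for Col4a2.

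The single-cell libraries gave the time course of the same genes in irradiated day 8 organoids at a lower dose of TGFB1. The libraries of 0, 6, 15 and 24 h held 2932, 4283, 2890 and 2218 cells. A median cell had 8202, 6709, 7805 and 10441 UMIs (counted molecules), respectively. The crypt libraries held 1846 non-irradiated cells and 719 and 699 cells after irradiation, with medians of 11969, 14399 and 13500 UMIs. There was 1 library per time point, so no test between times is possible, and values are CPM (the UMIs of a gene scaled to a fixed total of UMIs) of the summed cells with exact Poisson intervals at 95% that cover counting error only. Of the cell barcodes, 1 was shared between 15 h and 24 h and 1 between 24 h and the second irradiated crypt library.

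Edn1, Thbs1 and Fstl1 were read in more organoid cells than the other genes of the set and were higher at each later time. Fstl1 was in only 47 cells at 0 h, with 65 UMIs. Edn1 stood at 136 CPM (132 to 141), 232 CPM (227 to 237), 535 CPM (526 to 544) and 872 CPM (862 to 883) at 0, 6, 15 and 24 h. Thbs1 stood at 28.6 CPM (26.6 to 30.6), 39.5 CPM (37.4 to 41.8), 107 CPM (103 to 111) and 245 CPM (240 to 251). Fstl1 stood at 2.38 CPM (1.83 to 3.03), 8.65 CPM (7.67 to 9.72), 23.0 CPM (21.2 to 24.9) and 29.7 CPM (27.8 to 31.7). None of the counting intervals of neighbouring times overlapped for these 3 genes. In CPM the step between 15 and 24 h was the largest of the 3 for Thbs1 and Edn1, and that between 6 and 15 h the largest for Fstl1.

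Ltbp4 had 2, 4 and 9 UMIs in the libraries of 0, 6 and 15 h and 61 UMIs at 24 h, or 0.0731, 0.123, 0.342 and 1.99 CPM. The 24 h interval of Ltbp4 (1.52 to 2.56 CPM) lay above the others, and its UMIs came from 45 cells. Of these, 42 also had a Clu UMI, where 70.5% of all cells of that library did. Their median depth was 18991 UMIs against 10375 UMIs in all cells, and a marker is met more often in a deeper cell. A mesenchymal, endothelial or immune marker other than Vim was in 11 of the 45 cells, against 8.88% of all cells. The part of depth or of other cells was not tested. Ltbp3 had 3, 2, 3 and 20 UMIs, the last from 16 cells. Ltbp1 and Ltbp2 had 2.19 to 6.14 UMIs in each organoid library, part of them fractional because a molecule was split between genes. Efemp1 had 1, 2, 1 and 1 UMIs. The absence of a time course of Efemp1 on day 8 stands beside its level in irradiated bulk organoids of day 7 with TGFB1 (0.0893 to 0.183 FPKM).

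Col4a1 and Col4a2 were read in a handful of cells. Col4a1 had 1.5, 11, 12 and 20 UMIs at 0, 6, 15 and 24 h, and the 20 UMIs of the last library came from 5 cells, with up to 8 in 1 cell. Col4a2 had 6, 12, 15 and 19 UMIs, the last also from 5 cells, with up to 9 in 1 cell. At 6, 15 and 24 h, 3 cells in each library held both collagens. All 5 Col4a1 cells and all 5 Col4a2 cells of 24 h had a Clu UMI, against 70.5% of all cells, as did 4 of 4 and 7 of 7 cells at 15 h, against 46.1%, and 4 of 6 and 5 of 6 cells at 6 h, against 18.8%. Each of these cells had UMIs of at least 5 of the 7 epithelial markers, but their median depth at 24 h (30567 and 25497 UMIs) was above that of all cells (10375 UMIs), and a marker is met more often in a deeper cell. At least 1 UMI of a mesenchymal, endothelial or immune marker other than Vim was in 3 of the 5 Col4a1 cells and in 1 of the 5 Col4a2 cells at 24 h, against 8.88% of all cells. Whether doublets or another cell type had a part in these few cells was not tested.

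**Figure D3:**
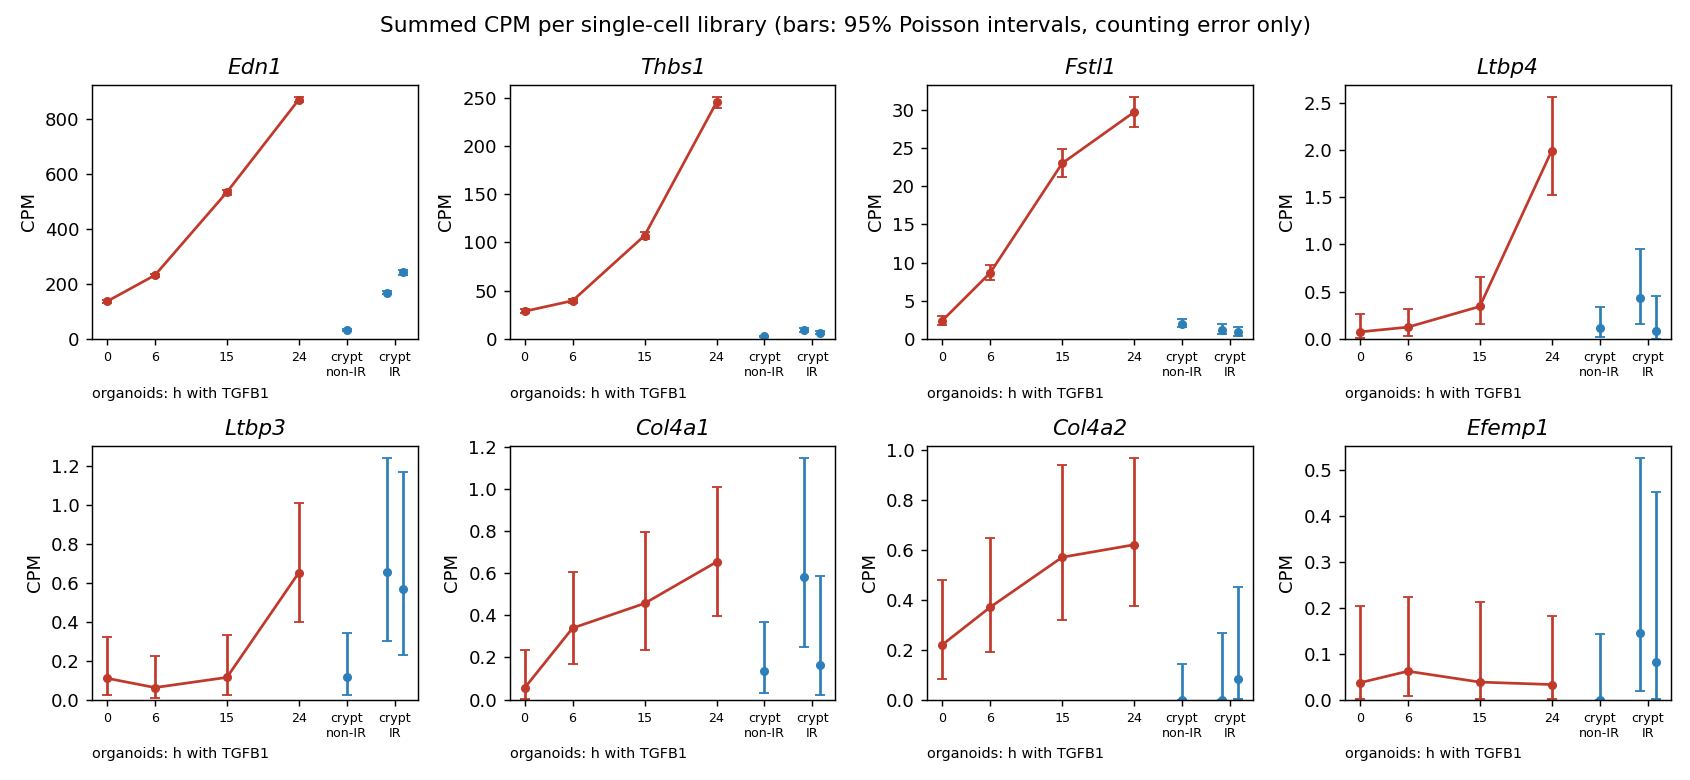
Summed CPM (linear axis from 0, a scale of its own per gene) of 8 genes in irradiated day 8 organoids after 0, 6, 15 and 24 h (red, 1 library each) and in sorted crypt cells (blue, 1 non-irradiated and 2 irradiated libraries), with exact Poisson intervals. Edn1, Thbs1 and Fstl1 are higher at every later time, Ltbp4 is highest at 24 h (1.99 CPM), and Efemp1 holds 0 to 2 UMIs in each library.

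After each cell was thinned to 2000 UMIs, the share of organoid cells with an Edn1 UMI was 15.9%, 24.0%, 40.3% and 49.9% at 0, 6, 15 and 24 h, and 36.3%, 43.7%, 63.7% and 80.7% without thinning. For Thbs1 the thinned shares were 5.05%, 6.26%, 12.8% and 22.5% (12.2%, 13.8%, 24.8% and 44.5% unthinned), and for Fstl1 0.512%, 1.61%, 4.26% and 5.37% (1.60%, 5.00%, 11.6% and 16.1% unthinned). Thinning left out 1 cell at 0 h and 5 cells at 6 h. No cell type known to lack these genes was identified in the organoids, so the share that free RNA gives was not measured. Every cell with a UMI of Edn1, Thbs1 or Fstl1 also had an epithelial marker UMI in each of the 4 organoid libraries, as did 100% of all cells at 15 h and 24 h.

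Cells that differ in state held the 3 genes unequally. Cells were divided by whether a marker UMI was among the 2000 UMIs kept in thinning, so a cell on the negative side can hold the marker at its full depth. The first marker was Olfm4, a gene of crypt base progenitors. At 24 h Edn1 stood at 1421 CPM (1400 to 1442) in 926 Olfm4-positive cells and at 495 CPM (484 to 505) in 1292 others. Thbs1 stood at 427 CPM (416 to 439) against 120 CPM (115 to 125). The widest gap was that of Fstl1, at 68.5 CPM (64.0 to 73.3) against 2.73 CPM (2.02 to 3.61), and a gap was already present at 0 h (5.15 CPM, 3.97 to 6.58, against 0.0677 CPM, 0.00171 to 0.377). Median depth was 10657 UMIs in the Olfm4-positive and 10036 UMIs in the other cells of 24 h. These splits are within 1 library each, and cells of a library are not replicates.

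Clu, which marks the revival state of injured epithelium, gave a similar division. At 24 h, cells with a Clu UMI after thinning (929 of 2218, where 70.5% of cells had one at full depth) held 1452 CPM of Edn1, 467 CPM of Thbs1 and 51.3 CPM of Fstl1. The other 1289 cells held 387 CPM, 59.4 CPM and 11.6 CPM. At 0 h, when 67 cells had a Clu UMI after thinning, Thbs1 was at 106 CPM (82.5 to 135) in them and at 26.9 CPM (24.9 to 28.9) in the others. Thbs1 in cells without a Clu UMI went from 26.9 to 59.4 CPM between 0 and 24 h, and in cells with one from 106 to 467 CPM. Cells with a UMI of Fabp1, an enterocyte gene, held less of all 3: at 24 h Edn1 was at 561 CPM against 1508 CPM, Thbs1 at 130 against 481 CPM and Fstl1 at 16.6 against 56.3 CPM. Those without a Fabp1 UMI were deeper, with a median of 14383 UMIs against 8747 UMIs. Cells with a UMI of Lgr5, the stem cell gene, held 1818 CPM of Edn1, 666 CPM of Thbs1 and 139 CPM of Fstl1 at 24 h, against 814, 219 and 22.7 CPM in cells without one. All 3 genes were higher at 24 h than at 0 h on both sides of each of these splits.

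**Figure D4:**
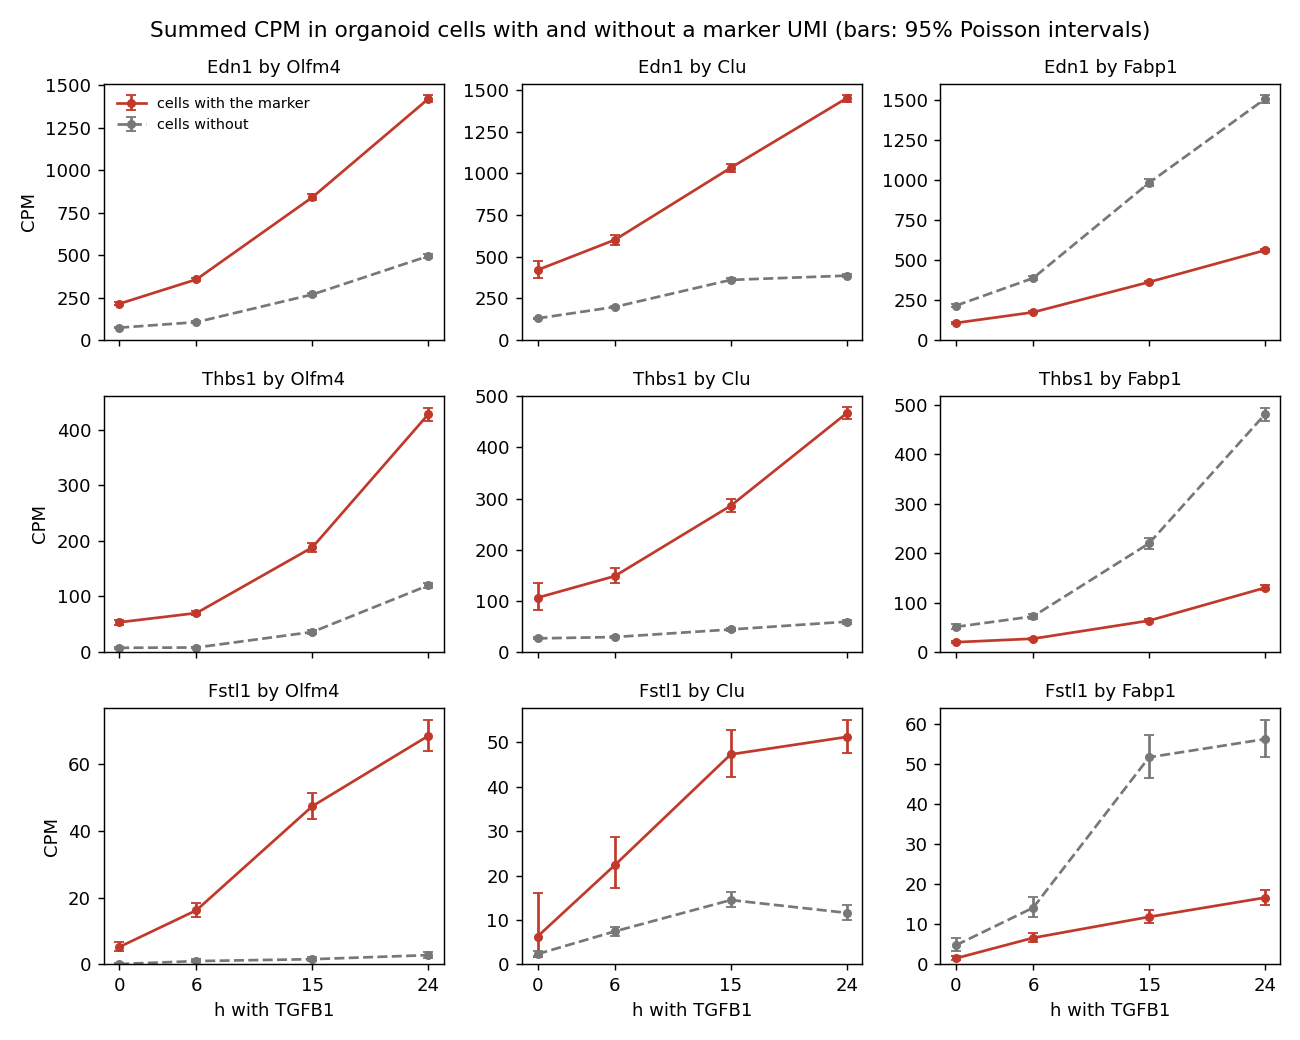
Summed CPM (linear axis from 0) of Edn1, Thbs1 and Fstl1 (rows) over 0 to 24 h with TGFB1 in organoid cells with (red, solid) and without (grey, dashed) a UMI of Olfm4, Clu or Fabp1 after thinning (columns), 1 library per time, with exact Poisson intervals. Cells with Olfm4 or Clu lie above the others and cells with Fabp1 below them at every time for Edn1 and Thbs1, and at 24 h Fstl1 stands at 68.5 against 2.73 CPM by Olfm4.

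In sorted crypt cells of mice Edn1 was at 32.4 CPM (30.2 to 34.6) without irradiation and at 168 CPM (162 to 176) and 242 CPM (233 to 251) in the 2 libraries taken 56 h after irradiation. Thbs1 was at 2.56 CPM (1.98 to 3.26) against 9.03 CPM (7.51 to 10.8) and 6.40 CPM (5.07 to 7.98). Both irradiated libraries lay above the single non-irradiated library for Edn1 and Thbs1 beyond counting error, with no replicate of the latter. Fstl1 was at 1.99 CPM (1.49 to 2.62) against 1.15 CPM (0.657 to 1.88) and 0.851 CPM (0.417 to 1.54), and these intervals overlapped. The thinned share of cells with an Edn1 UMI was 5.25% without irradiation and 21.4% and 25.9% with it, and 23.2%, 59.0% and 60.2% unthinned. Col4a2 had 0, 0 and 1 UMIs and Efemp1 0, 2 and 1 UMIs; in the non-irradiated library 3 counts would be 0.116 CPM, and the exact interval of a count of 0 reaches 0.143 CPM. Of Edn1-positive cells of the first irradiated library, 12.3% had a UMI of another lineage's marker, against 6.26% of all its cells, and 4.42% against 5.15% in the second. Of Thbs1-positive cells of the non-irradiated library, 16 of 19 had an epithelial marker UMI after thinning, against 99.8% of all its cells. At full depth 52 of 53 did, and in each irradiated library 10 of 10 did after thinning. The part of other cells or of their RNA in these values was not tested. In the second irradiated library, cells with a UMI of Ly6a, a gene of the fetal-like injury state, held 311 CPM of Edn1 (294 to 328) and the others 209 CPM (199 to 219). This division is given for 1 library only, so whether it repeats in the first irradiated library is not shown.

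The other genes around the latent TGFB complex and the epithelial matrix were taken from lists chosen with earlier results of these data known, 104 genes in 7 lists without the 10 genes above, of which 100 were in the tables. They were tested with limma over all genes averaging 1 FPKM or more, and called at a Benjamini-Hochberg adjusted p under 0.05. In non-irradiated organoids 42 list genes were tested, of which 30 rose and 7 fell, where 68.2% of all genes tested passed in either direction, 33.3% up and 34.9% down. In irradiated day 7 organoids 33 of 47 rose and 11 fell (35.8% and 39.7% of all genes, 75.5% in either direction), and on day 11, 24 of 43 rose and 9 fell (32.3% and 31.6%, 63.9% in either direction). The median log2(FPKM + 1) difference of the list genes tested was 0.97, 0.88 and 0.29, beside -0.02, -0.03 and 0.01 over all genes tested.

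Of the genes for release of latent TGFB, 9 of 9 tested rose in non-irradiated and 8 of 9 in irradiated day 7 organoids with none falling, and on day 11, 6 of 9 rose and 2 fell. Tgfb1 itself rose from 9.95 ± 0.854 to 28.3 ± 1.19 FPKM (SD, n = 3) in non-irradiated organoids (log2 difference 1.42, limma adjusted p = 6.3e-09). It rose from 3.43 ± 0.470 to 33.5 ± 0.591 FPKM in irradiated day 7 organoids (2.97, adjusted p = 2.8e-10) and was at 14.3 ± 1.82 and 13.3 ± 1.63 FPKM on day 11 (-0.09, adjusted p = 0.49). Itgb6, a partner of Itgav in freeing latent TGFB, rose in all 3 conditions, from 8.93 to 39.0, 3.35 to 31.8 and 5.46 to 15.5 FPKM (limma adjusted p = 1.8e-10, 3.8e-10 and 2e-05). Thbs1 and Itgb6 were thus both higher on day 11 while Tgfb1 did not pass the test there.

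Of the basement membrane genes that partner with type IV collagen, 9 of 10 tested rose in non-irradiated, 8 of 11 in irradiated day 7 and 9 of 11 in day 11 organoids, and 1, 2 and 1 fell. Lama3, a chain of epithelial laminin-332, had the largest list change on day 7, from 0.555 ± 0.0521 to 57.9 ± 5.33 FPKM (SD, n = 3) without irradiation (5.24, limma adjusted p = 2.5e-12) and from 0.331 ± 0.0732 to 37.7 ± 3.64 FPKM with it (4.86, adjusted p = 1.7e-11). Hspg2, which encodes perlecan, fell in all 3 conditions, by 0.44, 1.86 and 2.11 on the log2 scale (limma adjusted p = 2.7e-05, 5.3e-09 and 1.1e-07).

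The other lists were smaller or mixed. Collagen maturation, the enzymes and chaperones that fold collagen, had 3 genes up and 3 down of 8 tested in non-irradiated organoids, 2 up and 6 down in irradiated day 7 organoids and 1 each on day 11. Among the thrombospondin and follistatin-like relatives of Thbs1 and Fstl1, 3 of 5, 5 of 6 and 3 of 5 rose and 1 fell in each condition. Fstl4, a follistatin-like relative, rose from 0.357 ± 0.0586 to 9.18 ± 0.115 FPKM in non-irradiated organoids (2.91, limma adjusted p = 6.8e-11). The endothelin axis had 1 of 3, 3 of 4 and 1 of 3 genes up and 0, 0 and 1 down; Edn3, a second endothelin, rose in irradiated day 7 organoids (0.83) and fell on day 11 (-1.05). Of the microfibril and elastic fibre relatives of Efemp1, 2 of 3, 3 of 4 and 0 of 2 rose and 1, 1 and 2 fell, the last pair being Efemp2 and Fbln1, named after their values were seen.

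Other matrix genes linked with TGFB rose in 3 of 4, 4 of 5 and 4 of 5 tested, with 1 fall in each condition, Tgfbi (-1.16, -0.36 and -2.44). Ctgf, a matricellular gene, rose from 8.66 ± 0.976 to 178 ± 5.71 FPKM in non-irradiated organoids (4.22, limma adjusted p = 1.1e-11) and from 1.07 ± 0.134 to 34.4 ± 5.42 FPKM on day 11 (4.09, adjusted p = 1.7e-08). Its relative Cyr61 rose from 6.93 ± 0.992 to 81.4 ± 6.76 FPKM in irradiated day 7 organoids (3.38, limma adjusted p = 2.9e-09). Fn1, the fibronectin to which latent complexes attach, rose from 0.299 ± 0.136 to 38.0 ± 11.7 FPKM on day 11 (4.87, limma adjusted p = 3.1e-07) and Igfbp7 from 2.48 ± 0.618 to 35.1 ± 8.95 FPKM (3.36, adjusted p = 3e-06). Fn1 was at a mean of 1.07 FPKM in non-irradiated organoids with TGFB1, where its mean over all 6 libraries was below the 1 FPKM required for a test, and at 6.72 FPKM in irradiated day 7 organoids with TGFB1.

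**Figure D5:**
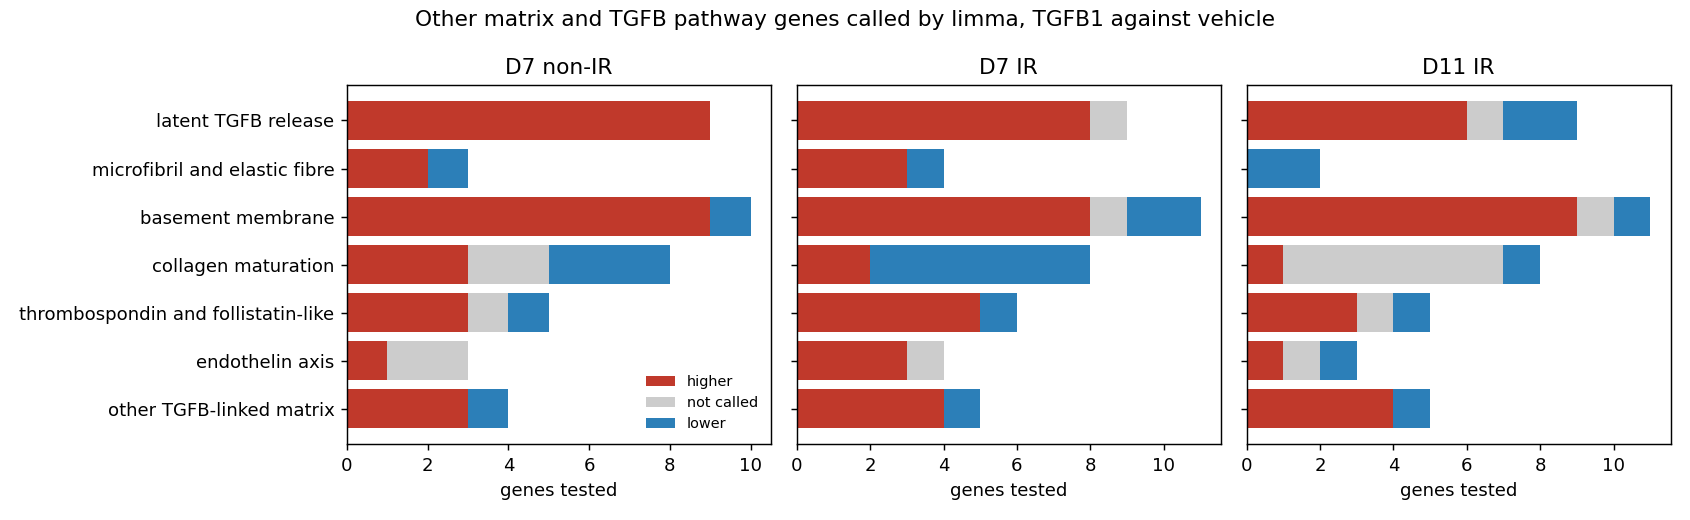
Number of list genes tested (horizontal axis) in each of the 7 lists that rose (red), were not called (light grey) or fell (blue) with TGFB1 by limma, 3 against 3 libraries, in non-irradiated day 7, irradiated day 7 and irradiated day 11 organoids. No gene of latent TGFB release fell on day 7, and basement membrane genes rose in 9 of 10, 8 of 11 and 9 of 11.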

How the data were processed

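Per the submitters' processing notes, TopHat2 2.1.0, Cuffnorm 2.2.1 and STAR 2.7.10a were among the tools, with no role given. The authors deposited FPKM in 1 table per condition (6 libraries each) and single-cell matrices of expected counts of UMIs, with fractional entries where a molecule was split between genes. All 10 genes and all lists were chosen with earlier results of these data known. FPKM were taken as log2(FPKM + 1). For each table limma 3.58.1 (trend, robust, R 4.3.3) gave the difference and its SE, for tests only over genes averaging 1 FPKM or more, two-sided, adjusted p under 0.05. For the 10 genes no p was taken. The SE of a gene averaging 1 FPKM or more in a condition came from that fit. For the others it came from a fit of all genes above 0. Differences of effects between conditions, with their SE, came from a joint fit of the 2 conditions over all genes above 0. Named list genes are the 3 called per table with the largest difference and no overlap between groups; the others were named after their values were seen. A gene that this rule names is not reported here. The fit was tested on simulated data: with a true log2 change of 1, 96.0%, 100.0% and 90.0% of 50 genes were recovered among 11330, 11258 and 11478 (non-irradiated, irradiated day 7, day 11). With a change of 0.5 it was 84%, 92% and 54% of 50 genes. In the simulation 11130, 11058 and 11278 genes had no change, whereas most genes tested in the data were called. Recovery in the data can therefore differ. Cells were kept from 500 UMIs and 250 genes upward, where mitochondrial UMIs made up 20% or less. Doublets were not removed. For splits by a marker, UMIs were rounded and each cell was thinned to 2000 UMIs, and for shares intervals were exact (Clopper-Pearson). Entries that were not whole held 7.87 to 21.8% of UMIs. The replicate numbers did not pair the libraries (correlation of deviations -0.0856 to 0.213). ATAC peaks, deposited as −log10 q scores, were not used here, since they reach beyond the last gene of the reference on chromosome 1 (197175936 against 195291439), so the peaks are on another build than that reference. Alternatives were pseudocount, filter, scaling, replicate block, left-out libraries, fold, thinning and barcode filter.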

Additional observations from a re-analysis of the deposited data

Results flagged for a closer look

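Col4a1 and Col4a2 moved in opposite directions with TGFB1 in non-irradiated and irradiated organoids: every TGFB1 library was below every vehicle library without irradiation and above every one with it. For Col4a1 the log2(FPKM + 1) difference was 1.31 larger in irradiated than in non-irradiated day 7 organoids and 2.69 larger on day 11. For Col4a2 it was 1.36 and 2.95 larger. The difference was not tested, because these contrasts chose the genes. Both were under 1 FPKM in all 6 non-irradiated libraries. They overlap each other on opposite strands, with start sites 21 bases apart, and reads of that overlap may be counted for either.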

How the results depend on the processing

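Among the 10 genes, no difference between groups that did not overlap changed its direction under any alternative run. Where the groups overlapped, direction was not followed, and a difference close to 0 can change sign when 1 library is left out. Requiring also a 2-fold change lowered the count of list genes that fell to 2 in non-irradiated, 3 in irradiated day 7 and 4 in day 11 organoids, and of those that rose to 21 in irradiated day 7 and 14 in day 11 organoids. Without the filter 38, 41 and 36 rose, and with the replicate block 30, 33 and 23 rose and 7, 11 and 9 fell. Leaving out 1 library at a time gave 27 to 30, 32 to 33 and 20 to 24 that rose and 7, 11 and 9 to 11 that fell, and 6 to 7, 8 and 9 of the 10 genes above vehicle. A pseudocount of 0.1 moved 26 of 30 differences of the 10 genes by more than 1 SD, quantile normalisation 4 of 30, and the replicate block and median-ratio scaling 0. Keeping only whole entries moved 17 of 70 CPM values and thinning to 1000 UMIs 32 of 70 shares beyond their intervals, and taking all barcodes moved 0 of 70. The planned comparison of ATAC peaks at start sites was not run, since no annotation of the peaks' build was used here. Read depth of the bulk libraries is unknown, which limits what levels under 1 FPKM show. Single-cell values of Efemp1, Ltbp1, Ltbp2, Ltbp3, Col4a1 and Col4a2 rest on few UMIs, as do those of Ltbp4 in every library but that of 24 h. With 1 library per time, single-cell intervals carry no replicate error.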
